A study of Mus musculus with 8 samples.

Results

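The endoplasmic reticulum (ER) chaperones and the genes of the unfolded protein response were examined as a set of 37 genes in tibialis anterior muscle of mice with and without Carm1 in muscle fibres. The members were matched by gene symbol, and each of the 37 had 1 row among the 24341 genes listed per library. All 37 had an acceptable estimation status in every library. Of these, 36 were expressed highly enough to be tested, at 1 scaled FPKM or more in no fewer than 4 of the 8 libraries. Derl3 was not.

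The tibialis anterior, a fast-twitch muscle at the front of the lower leg, was taken from 8 mice of 12 weeks that were fed chow and described as male. Carm1 encodes an arginine methyltransferase, also known as PRMT4. The 4 knockout mice (Carm1 skm-/-) carried floxed Carm1 and 1 copy of the HSAcre transgene, and the 4 control mice (Carm1 skm+/+) carried floxed Carm1 without the transgene, so that Cre and loss of Carm1 go together. The transgene is driven by skeletal actin regulatory DNA, so recombination is directed to the fibres, and fibroblasts, vessels and blood cells of the tissue are not targeted. The 4 animals per genotype are separate per the labels. RNA levels are given as FPKM, fragments normalised to transcript length and library size, divided by 1 factor per library (scaled FPKM).

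Proteins that enter the ER are folded there by the Hsp70 chaperone BiP (Hspa5), the Hsp90 chaperone GRP94 (Hsp90b1), lectins and disulfide enzymes, and those that do not fold are passed back to the cytosol for degradation. When unfolded proteins build up, the sensors IRE1, ATF6 and PERK signal to the nucleus. IRE1 and ATF6 act through the factors XBP1 and cleaved ATF6 on chaperone and degradation genes, while PERK phosphorylates eIF2alpha and raises translation of ATF4, which acts on amino acid and stress genes. In muscle fibres much of the ER is the sarcoplasmic reticulum, which stores calcium.

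The targeted gene, whose locus overlaps those of 1810026J23Rik and Yipf2, followed the labels. Carm1 stood at 27.1, 37.4, 27.3 and 30.1 scaled FPKM in controls 1 to 4 and at 18.0, 12.7, 17.2 and 13.8 in knockouts 1 to 4. The log2 difference was -0.94 (SE 0.14, limma adjusted p = 0.0466), and the adjusted p was 0.0635 to 0.145 with any 1 library left out. Xist, an RNA of female cells, stood at 20.1, 21.5 and 19.3 scaled FPKM in control 1, knockout 2 and knockout 4 and at no more than 0.0733 in the other 5 libraries, against the description of all mice as male. Results without these 3 libraries are given for Sdf2l1, Manf, Hyou1, Pdia6, Hspa5 and Hsp90b1, and for members whose sign turned there. Medians without them are given for the chaperones and for the PERK and ATF4 targets. Estimated depth ran from 81.0% to 100% of that of control 1, and absolute read numbers are not known. Of the muscle fibre markers, Mb, Tnni2, Ttn, Des and Pvalb together made up between 50308 and 67673 scaled FPKM in controls and between 36203 and 54945 in knockouts, and 4 of these 5 genes had a negative difference. Acta1, Ckm and Tnnt3 had an estimation status other than OK and were left out.

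Promoter sequences show an element that some of the members share. The ER stress element is the best known site of the ATF6 and XBP1 response and reads CCAAT, 9 bases of any kind, then CCACG. It was searched on both strands in the 250 bases before each RefSeq start site (GRCm38.p6, the assembly of mm10). RefSeq promoters were matched for 31 of the 37 members, Ero1l under its current symbol Ero1a. Those not matched were Hspa13, Hyou1, Manf, Atf6, Ppp1r15b and Derl1. The element was found in 9 of these 31 genes and in 0.113% of all 32851 promoters in the table. It was in 7 of the 15 matched chaperone and folding genes. The 8 without it in this window were Sdf2l1, Sdf2, Dnajb9, Dnajb11, P4hb, Pdia3, Pdia4 and Ero1l. It was defined on genes of this kind, so the match describes the set and is no result about the knockout. The elements are printed so that their fixed and free parts can be compared, 5' to 3' on the strand that reads CCAAT first, with CCAAT and CCACG in capitals.
Hspa5: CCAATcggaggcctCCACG
Hsp90b1: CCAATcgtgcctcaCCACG
Hsp90b1: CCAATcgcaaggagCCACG
Pdia6: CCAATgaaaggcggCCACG
Dnajc3: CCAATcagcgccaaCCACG
Calr: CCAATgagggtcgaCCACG
Canx: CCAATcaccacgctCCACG
Creld2: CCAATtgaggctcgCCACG
Syvn1: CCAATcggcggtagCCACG
Derl3: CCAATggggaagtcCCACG

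The 9 free bases differed from gene to gene, and Hsp90b1 held the element 2 times. In Hspa5 it lay 65 to 47 bases before the start site and in Syvn1, the ubiquitin ligase of ER-associated degradation, 44 to 26 bases before it. The elements of Calr, Creld2, Derl3 and the first listed of Hsp90b1 were on the strand opposite to the gene. A shorter form, ATTGG, 1 free base, CCACG, was found in Herpud1 alone among the members and in 0.0304% of all promoters. TGACGTGG, a core bound by XBP1 and ATF6, was found in Vcp and in 0.563% of all promoters. TGATGCAA or TGATGAAA, the core of the element that ATF4 binds with C/EBP factors, was found in Asns, Chac1 and Herpud1 and in 1.67% of all promoters. No match of one motif overlapped a match of another in these windows.

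The windows of Hspa5 (chr2:34771840-34772089, plus strand), Hsp90b1 (chr10:86705445-86705694, minus strand) and Pdia6 (chr12:17266339-17266588, plus strand) are shown because these 3 genes hold the element and had the highest differences among its holders. Capitals mark the whole element on either strand.
Hspa5: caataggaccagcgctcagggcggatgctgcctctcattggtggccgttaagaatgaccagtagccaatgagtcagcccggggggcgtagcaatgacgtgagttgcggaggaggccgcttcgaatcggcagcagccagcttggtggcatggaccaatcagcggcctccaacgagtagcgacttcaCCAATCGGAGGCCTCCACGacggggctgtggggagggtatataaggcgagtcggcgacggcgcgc
Hsp90b1: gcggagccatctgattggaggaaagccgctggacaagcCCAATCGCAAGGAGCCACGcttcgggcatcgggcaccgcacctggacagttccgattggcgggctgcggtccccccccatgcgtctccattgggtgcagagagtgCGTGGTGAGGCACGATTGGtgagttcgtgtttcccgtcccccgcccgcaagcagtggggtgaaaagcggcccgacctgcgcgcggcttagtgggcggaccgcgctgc
Pdia6: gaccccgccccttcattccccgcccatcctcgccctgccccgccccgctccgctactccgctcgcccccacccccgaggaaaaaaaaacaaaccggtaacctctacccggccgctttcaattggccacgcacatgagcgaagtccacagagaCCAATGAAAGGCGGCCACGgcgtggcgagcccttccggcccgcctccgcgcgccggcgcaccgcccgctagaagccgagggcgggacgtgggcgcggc

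Levels across the members spanned more than 3 orders of magnitude, and their order in controls put a transcription factor and degradation genes at the top. On the per-length FPKM scale Atf4 had the highest control mean, 220 ± 54.0 scaled FPKM (SD, n = 4), followed by Herpud1, a stress-induced membrane protein of ER-associated degradation, at 127 ± 13.1. The ATPase Vcp at 114 ± 16.8 and Hspa5 at 109 ± 10.2 came next. Herpud1 and Vcp did not differ beyond their spread, nor did Vcp and Hspa5. P4hb, the beta subunit of prolyl hydroxylase and a disulfide isomerase, at 88.2 ± 8.95 and the calcium-binding lectin Calr at 85.0 ± 6.37 also did not differ beyond their spread. The sensors were among the lowest: Atf6 at 5.90 ± 0.547, Eif2ak3 (PERK) at 1.89 ± 0.246 and Ern1 (IRE1) at 1.67 ± 0.384. Derl3, a derlin of ER-associated degradation found in secretory cells, lay between 0.0747 and 0.120 scaled FPKM in controls and between 0.124 and 0.482 in knockouts, too low for a test, although every knockout value was above every control value.

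**Figure D1:**
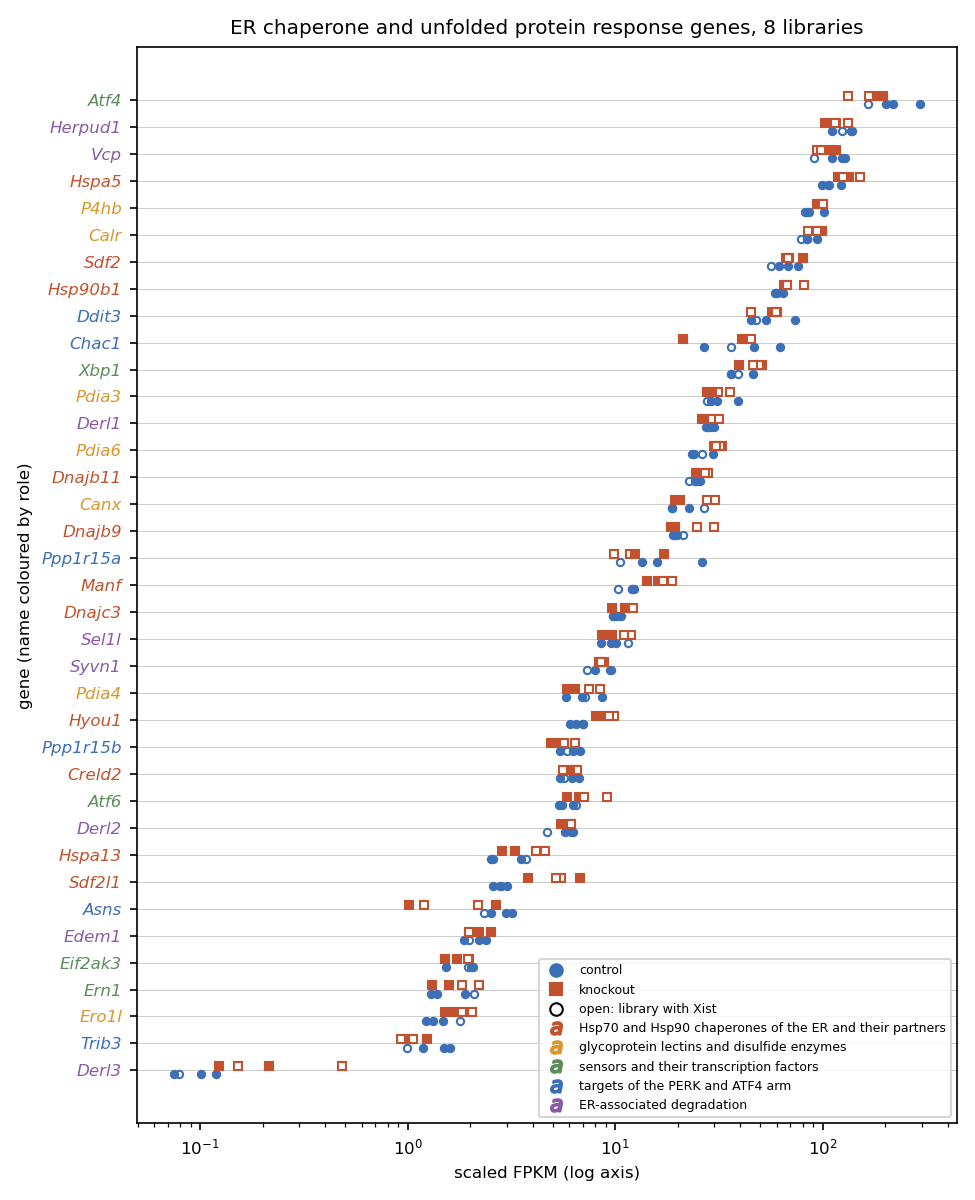
Scaled FPKM (log axis) of each of the 37 genes in 8 libraries, ordered by control mean, with controls as circles, knockouts as squares, and open symbols for the 3 libraries with Xist. Levels run from 0.0747 for Derl3 to 294 for Atf4, and the knockout squares of Sdf2l1, Manf and Hyou1 lie to the right of the control circles.

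No member passed the threshold of 0.05 in limma after Benjamini-Hochberg adjustment over all 11096 genes tested, where 0.36% of genes passed, 22 higher and 18 lower. At an unadjusted p under 0.05 stood 7 of the 36 members, 19.4%, against 13.1% of all genes. Of the 36 members, 6 had both that p and a positive difference, against 7.03% of all genes tested. Among genes at that p, the difference was positive in 6 of 7 members and in 53.6% of all genes. All 4 knockouts lay above all 4 controls in 5 members, 13.9%, against 4.67% of all genes, and all 4 lay below in 0 members, against 3.64%. A positive difference was seen in 25 of 36 members, against 49.5% of all genes. The median difference was 0.05 over the members and -0.0021 over all genes (log2).

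**Figure D2:**
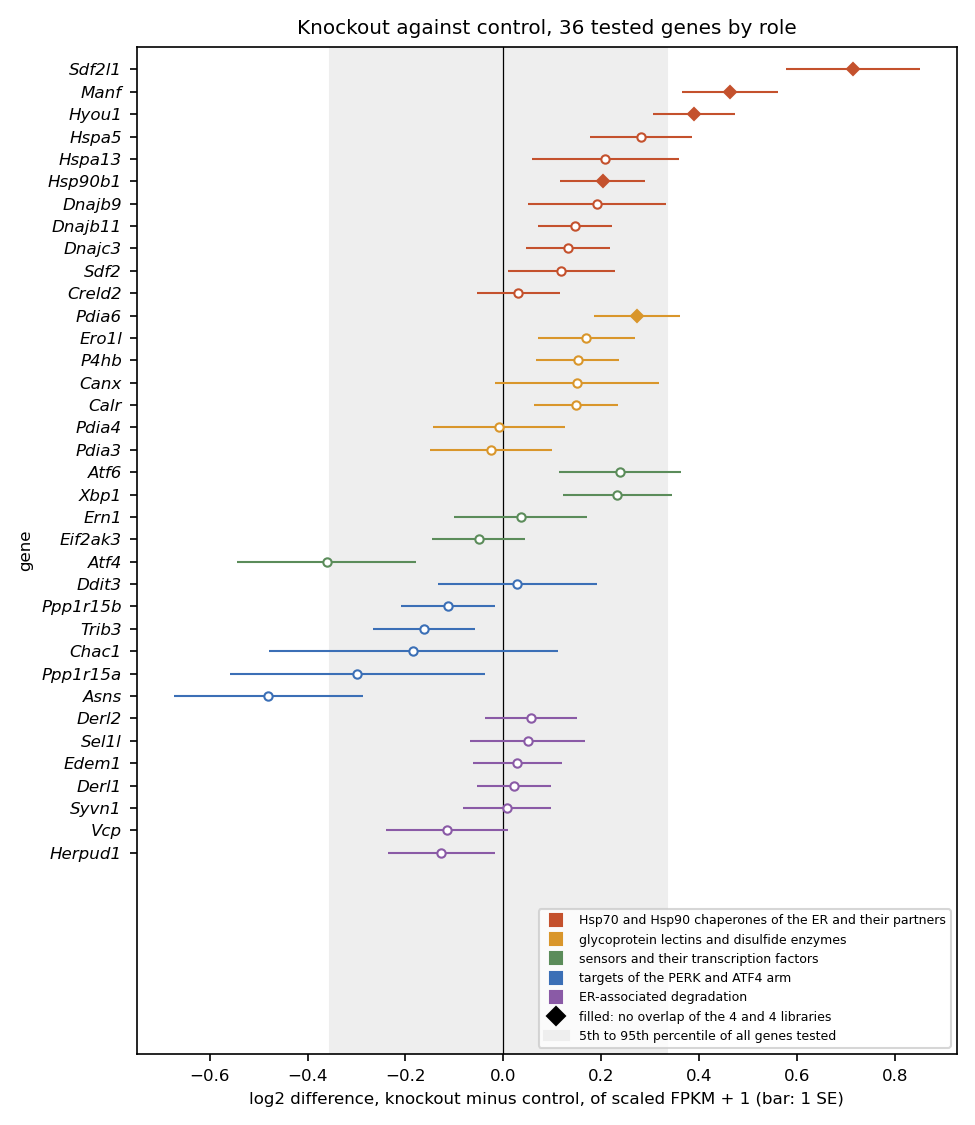
Log2 difference (knockout minus control) of the 36 tested genes with 1 SE, grouped by role, with filled diamonds where the 4 knockouts and 4 controls did not overlap and a grey band from the 5th to the 95th percentile of all genes, -0.35 to 0.33. Sdf2l1, Manf and Hyou1 lie above the band, and Asns and Atf4 below it.

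The Hsp70 and Hsp90 chaperones and their partners all had a positive difference, 11 of 11 against 49.5% of all genes, with a median of 0.20. In 4 of the 11 every knockout lay above every control, against 4.67% of all genes. None of the 11 passed over all genes (adjusted p between 0.0757 and 0.905). The largest difference belonged to Sdf2l1, a partner of the ER DnaJ proteins that keeps BiP clients soluble.

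Sdf2l1 (chr16:17130138-17132383, mm10) stood at 2.82, 2.79, 3.02 and 2.57 scaled FPKM in controls 1 to 4 and at 6.79, 5.45, 3.81 and 5.22 in knockouts 1 to 4. Every knockout was above every control, and knockout 3 was the closest to them. The means were 2.80 ± 0.187 and 5.32 ± 1.22 (SD, n = 4 each), a ratio of 1.90, and the log2 difference was 0.71 (SE 0.14, limma adjusted p = 0.0757). With knockout 3 left out the difference was 0.84 and the adjusted p 0.0417. With array weights, which give less weight to variable libraries, it was 0.73 with an adjusted p of 0.0334. In the other 16 alternatives that tested Sdf2l1 the adjusted p lay between 0.0537 and 0.295.

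Its paralog Sdf2 encodes a closely related ER protein that is not known as a stress target. Sdf2 ranged from 56.1 to 75.9 scaled FPKM in controls and from 66.7 to 80.3 in knockouts, with a log2 difference of 0.12 (SE 0.11). The ratio of Sdf2 to Sdf2l1, taken from the deposited FPKM within each library and so free of scaling between libraries, was 19.9, 24.5, 25.1 and 24.1 in controls 1 to 4. In knockouts 1 to 4 it was 11.8, 12.2, 18.1 and 13.0, each below all control ratios. This ratio was chosen after the values were seen.

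Manf (chr9:106887415-106891938), a small secreted and ER-resident factor that binds BiP, stood at 10.4, 12.4, 12.0 and 12.0 scaled FPKM in controls and at 16.1, 18.9, 14.3 and 16.9 in knockouts. The groups did not overlap, with control 1 lowest and knockout 2 highest. The log2 difference was 0.46 (SE 0.10, limma adjusted p = 0.0946).

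Hyou1 (chr9:44379490-44392369) encodes the large Hsp70-related protein GRP170, which exchanges nucleotide on BiP. It stood at 7.00, 7.03, 6.09 and 6.48 scaled FPKM in controls and at 8.69, 9.92, 8.12 and 9.38 in knockouts. Again no knockout lay within the control range. The log2 difference was 0.39 (SE 0.08, limma adjusted p = 0.0987).

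BiP itself had a smaller difference. Hspa5 (chr2:34772090-34776529) stood at 107, 106, 123 and 98.8 scaled FPKM in controls and at 135, 152, 118 and 125 in knockouts. Control 3 lay above knockout 3, so the groups overlapped, and 3 of 4 knockouts were above every control. Means of 109 ± 10.2 and 133 ± 14.6 (SD, n = 4 each) give a log2 difference of 0.28 (SE 0.10, limma adjusted p = 0.299). A 2-sided exact permutation test over the 8 libraries gave p = 0.0571 for Hspa5. With 4 libraries against 4 it can give no less than 0.0286. Every gene without overlap gives that p, here Sdf2l1, Manf, Hyou1, Hsp90b1 and Pdia6, so it adds nothing to the lack of overlap. Of all genes tested, 4.67% had all 4 knockouts above all 4 controls and 3.64% had all 4 below.

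Hsp90b1 (chr10:86690841-86705444), the ER Hsp90, stood at 60.0, 59.2, 59.7 and 64.7 scaled FPKM in controls and at 67.4, 81.3, 65.4 and 67.6 in knockouts. The groups did not overlap, but control 4 and knockout 3 were less than 1 scaled FPKM apart and knockout 2 stood far above the other knockouts. The log2 difference was 0.20 (SE 0.09, limma adjusted p = 0.374) and 0.13 without knockout 2.

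**Figure D3:**
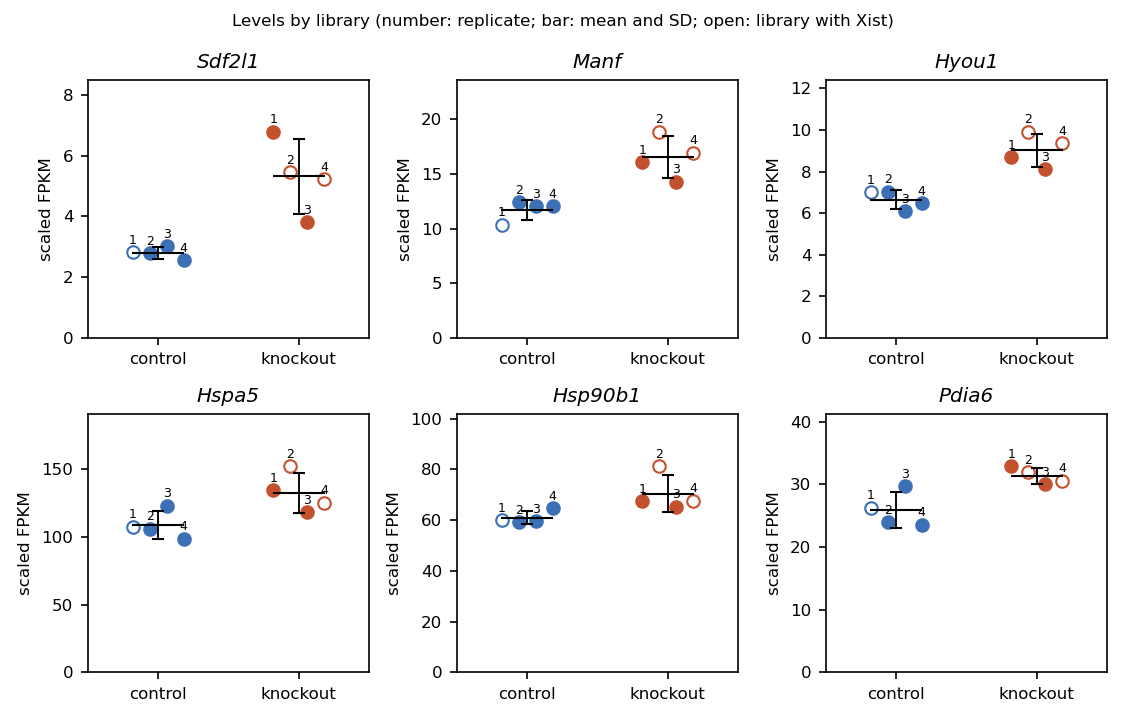
Scaled FPKM of Sdf2l1, Manf, Hyou1, Hspa5, Hsp90b1 and Pdia6 by library, with the replicate number at each point, mean and SD as bars, and open points for libraries with Xist. All 4 knockouts lie above all 4 controls in each panel except that of Hspa5, where control 3 at 123 exceeds knockout 3 at 118.

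The ER DnaJ proteins, which hand unfolded clients to BiP, had small positive differences. Dnajb11 had a log2 difference of 0.15 (SE 0.08), with 24.6 scaled FPKM in both control 3 and knockout 3, and its locus overlaps those of Ahsg and Gm30505. Dnajc3, which also inhibits PERK, stood at 10.1 ± 0.452 in controls and 11.2 ± 1.12 in knockouts (SD, n = 4 each), a difference of 0.13. Dnajb9 at 0.19, the ER Hsp70 Hspa13 at 0.21 and the disulfide isomerase-like Creld2 at 0.03 complete the group, with Hspa13 at 0.12 without knockout 2, and each of these 5 genes overlapped between the groups. Creld2, which holds the ER stress element, was highest in control 2, at 6.73 scaled FPKM.

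Among the 7 glycoprotein lectins and disulfide enzymes 5 had a positive difference, against 49.5% of all genes, with a median of 0.15. Pdia6 alone of the 7 had every knockout above every control, against 4.67% of all genes. Pdia6, a disulfide isomerase that also binds the IRE1 sensor, stood at 26.3, 24.0, 29.7 and 23.6 scaled FPKM in controls and at 32.9, 31.9, 30.1 and 30.6 in knockouts. Control 3 came within 1 scaled FPKM of knockout 3. Its log2 difference was 0.27 (SE 0.09, limma adjusted p = 0.232), and its locus overlaps that of Atp6v1c2, so part of its value is uncertain.

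P4hb had the highest level of this role, at 81.8, 83.7, 101 and 85.7 scaled FPKM in controls and 94.4, 96.6, 99.0 and 101 in knockouts. Control 3 was as high as the knockouts, and the difference of 0.15 (SE 0.09) did not pass (adjusted p = 0.492). Calr at 0.15, the membrane lectin Canx at 0.15 and the ER oxidase Ero1l at 0.17 lay in the same range. Pdia3, which works with both lectins on glycoproteins, at -0.03 and Pdia4, whose locus overlaps that of Mir704, at -0.01 each had their highest value in control 4. The isomerases thus had differences of both signs, and the difference between Pdia6 and Pdia3 was not tested.

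The genes of the 3 sensors had log2 differences of 0.24 for Atf6, 0.04 for Ern1 and -0.05 for Eif2ak3. Atf6, the membrane-bound factor, had a log2 difference of 0.24 (SE 0.12). Controls ranged from 5.34 to 6.47 scaled FPKM. Knockouts 1, 2 and 4 lay above every control, at 6.71, 9.18 and 7.09, and knockout 3 at 5.84 was within the control range. Without knockout 2 the difference was 0.13. Ern1 stood at 1.67 ± 0.384 in controls and 1.74 ± 0.386 in knockouts, and Eif2ak3 at 1.89 ± 0.246 and 1.79 ± 0.221 (SD, n = 4 each). Xbp1, the factor whose RNA IRE1 splices, stood at 39.0, 36.0, 46.1 and 36.2 scaled FPKM in controls and at 50.8, 49.4, 39.3 and 46.0 in knockouts. Knockouts 1 and 2 lay above every control, knockout 4 just under control 3, and knockout 3 within the control range. The difference was 0.23 (SE 0.11, limma adjusted p = 0.425). Gene-level FPKM do not separate spliced from unspliced Xbp1, and phosphorylation and cleavage of the sensors are not measured by RNA levels.

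Genes of the PERK and ATF4 arm mostly had negative differences. Atf4 stood at 165, 218, 294 and 202 scaled FPKM in controls and at 180, 168, 195 and 133 in knockouts, with a log2 difference of -0.36 (SE 0.18, limma adjusted p = 0.45). Control 3 was the highest library and control 1 the lowest control, lower than knockouts 1, 2 and 3. The 6 genes counted as targets of this arm include Ppp1r15b, which is constitutive. Among these 6 genes 5 had a negative difference and 1 a positive one, where 49.5% of all genes had a positive one. Their median was -0.17, and 0 passed (limma adjusted p between 0.337 and 0.960), against 0.36% of all genes. Without control 3 that median was -0.095, and the difference of Atf4 was -0.21.

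Asns, asparagine synthetase and a standard ATF4 target, had the most negative difference of all members, -0.48 (SE 0.19, limma adjusted p = 0.337). It stood at 2.34, 2.52, 3.17 and 2.99 scaled FPKM in controls and at 1.01, 1.20, 2.66 and 2.19 in knockouts. Knockouts 1, 2 and 4 were below every control and knockout 3 was within their range. Ppp1r15a, the stress-induced subunit that returns eIF2alpha to its unphosphorylated form, had a difference of -0.30 (SE 0.26) and ranged from 10.6 to 26.3 in controls alone. Without control 3, its highest library, the difference was -0.061, and without control 1 it was -0.47. Its locus overlaps those of Dhdh, Nucb1 and Tulp2, so its value is uncertain.

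The remaining targets overlapped between the groups. Chac1, a glutathione-degrading enzyme, ranged from 26.9 to 62.1 scaled FPKM in controls and from 21.3 to 45.2 in knockouts, and its difference of -0.18 had an SE of 0.30. Trib3, a pseudokinase, at -0.16 and Ppp1r15b, the constitutive paralog of Ppp1r15a, at -0.11 were lower by less than 2 SE. Ddit3, the factor CHOP, had the highest level of the targets, at 47.7, 53.3, 73.9 and 45.0 scaled FPKM in controls and at 60.1, 45.1, 57.0 and 59.3 in knockouts. Its difference was 0.03 (SE 0.16), and its locus overlaps that of Mars.

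ER-associated degradation showed small differences, between -0.13 and 0.06 for the 7 tested genes, and all 7 overlapped between the groups. Herpud1, the most abundant, stood at 124, 138, 137 and 110 scaled FPKM in controls and at 102, 133, 116 and 115 in knockouts. Its difference was -0.13 (SE 0.11, limma adjusted p = 0.675). Its promoter holds both the short ER stress element and an ATF4 core, as described above. Syvn1 had means of 8.58 in both groups, with SD of 1.07 and 0.186 (n = 4 each), and its locus overlaps those of Mir6988 and Mrpl49. Its adaptor Sel1l at 0.05, the mannosidase-like Edem1 at 0.03, the channel-forming derlins Derl1 at 0.02 and Derl2 at 0.06, and Vcp, which pulls clients from the membrane, at -0.12 complete the role. The Derl2 locus overlaps that of Mis12.

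**Figure D4:**
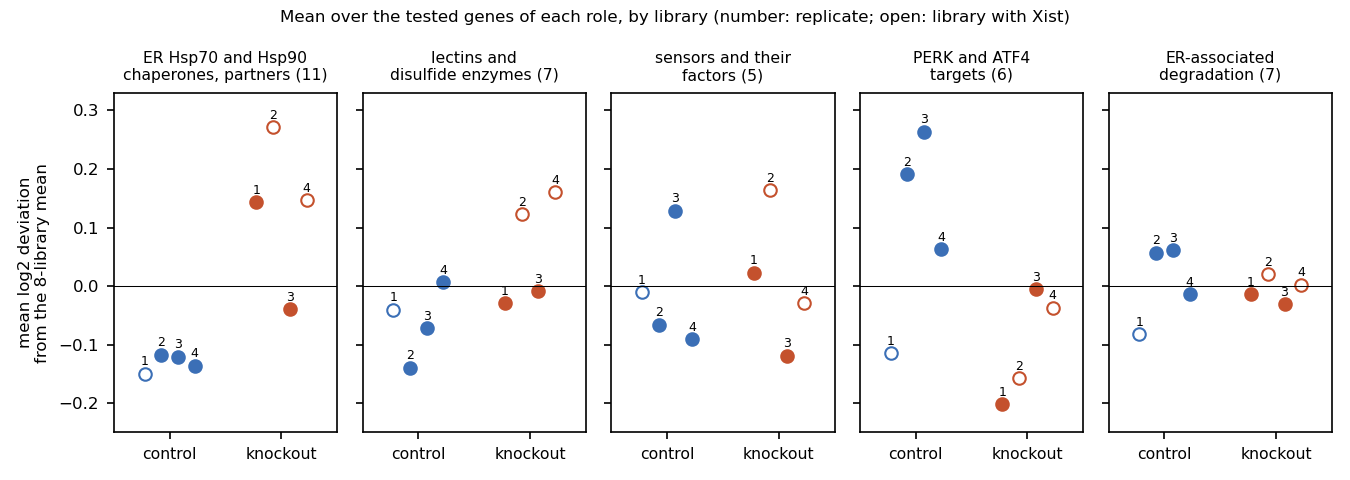
Mean over the tested genes of each role of the log2 deviation from the 8-library mean, by library, with replicate numbers and open points for libraries with Xist. For the chaperones the 4 controls lie between -0.15 and -0.12 and the knockouts between -0.04 and 0.27, while the PERK and ATF4 targets are highest in control 3.

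Per library, the chaperones of the Hsp70 and Hsp90 group were tight in controls and spread in knockouts. Their mean log2 deviation from the 8-library mean was -0.15, -0.12, -0.12 and -0.14 in controls 1 to 4. Knockouts 1 to 4 stood at 0.14, 0.27, -0.04 and 0.15, so knockout 3 was the closest to the controls. The highest library was a knockout for 10 of these 11 genes, knockout 2 for 6 and knockout 1 for 3. For all 6 PERK and ATF4 targets the highest library was a control, control 3 for 4 of them and control 2 for the other 2. How often each library was highest among all genes was not counted, so these counts describe the members only.

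Some members separated the libraries with Xist from the rest, at shares near those of all genes. Hspa13, Dnajb9, Canx, Ero1l and Sel1l were higher in control 1, knockout 2 and knockout 4 than in all other 5 libraries, and Atf4, Ppp1r15a and Vcp were lower there. These 5 and 3 of 36 members compare with 11.4% and 9.37% of all genes. Canx stood at 26.8, 30.2 and 27.6 scaled FPKM in the 3 libraries and between 18.8 and 22.7 in the others. For Dnajb9 the values were 21.3, 29.8 and 24.8 against 18.7 to 20.0, and this split was not tested. With knockouts 1 and 3 and controls 2, 3 and 4 alone, Canx had a difference of -0.0026, Dnajb9 of -0.02 and Sel1l of -0.031. Over all alternatives the difference of Hspa13 went as low as 0.0064, and that of Vcp ran from -0.22 to -0.0010.

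For the leading members the sign was the same with and without those libraries. In Sdf2l1, Manf, Hyou1, Pdia6 and Hsp90b1 it could not turn, as groups without overlap keep their order when libraries are left out. In the 5 libraries without Xist the differences were 0.69 for Sdf2l1, 0.32 for Hyou1, 0.30 for Manf (0.46 over all 8), 0.29 for Pdia6, 0.21 for Hspa5 and 0.12 for Hsp90b1 (adjusted p between 0.295 and 0.648). With presence of Xist as a covariate over all 8 libraries Hyou1 passed, at 0.35 (SE 0.07, limma adjusted p = 0.0468), as 1 of 36 members against 2.01% of all genes. Sdf2l1 in that fit was at 0.71 with an adjusted p of 0.0537 and Manf at 0.45 with 0.0636. In the 5 libraries 10 of 11 chaperones had a positive difference, with a median of 0.12, and 5 of 6 PERK and ATF4 targets a negative one, with a median of -0.25.

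**Figure D5:**
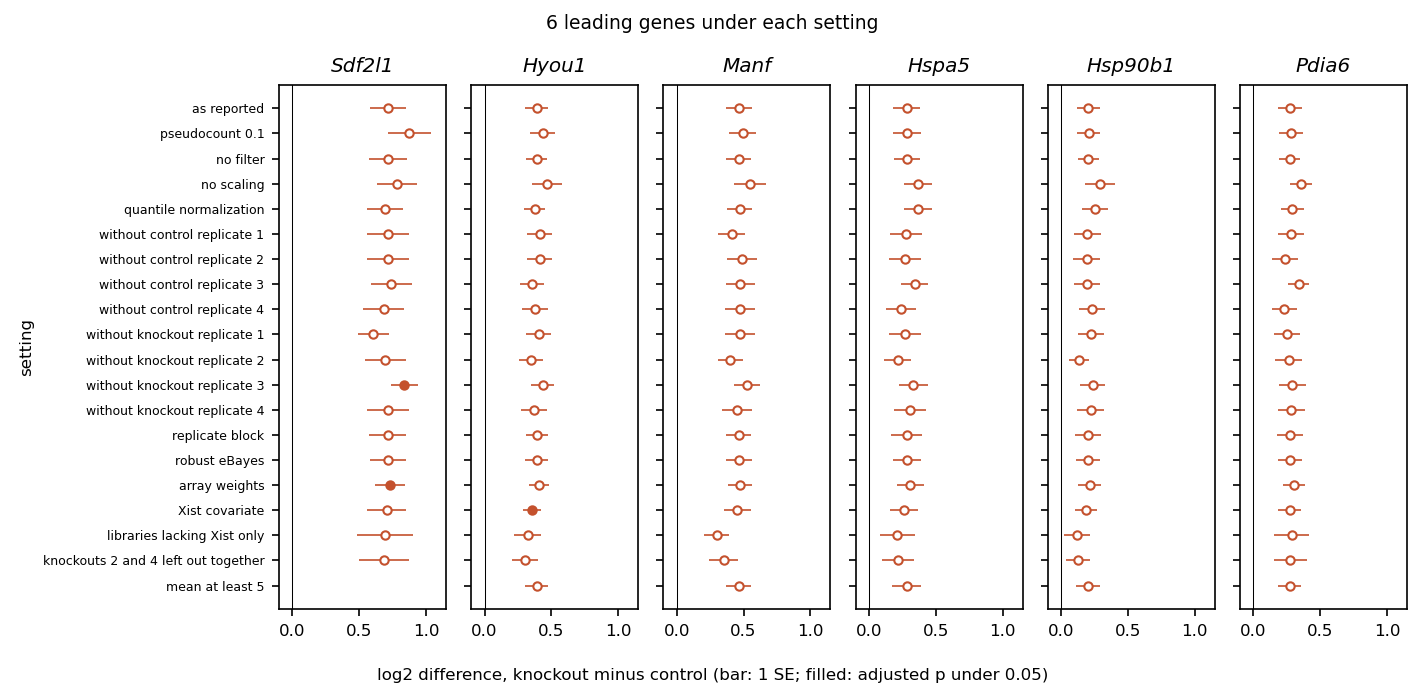
Log2 difference with 1 SE of 6 leading genes under the reported fit and each alternative, filled where the adjusted p is under 0.05. All values are positive, which leaving libraries out could not change for the genes without overlap, all but Hspa5. The 3 filled points are Sdf2l1 without knockout replicate 3 and with array weights, and Hyou1 with the Xist covariate. Sdf2l1 has no point in the fit of genes with a mean of at least 5.

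Other genes of the same pathways, in 6 lists that leave out the members, had list medians between -0.09 and 0.02. None of their tested genes passed over all genes, with a smallest adjusted p of 0.117 in limma. Between 1 and 3 of the 17 to 25 tested genes per list stood at an unadjusted p under 0.05, against 13.1% of all genes. At most 1 gene per list was higher without overlap, against 4.67% of all genes. At most 1 per list was lower without overlap, against 3.64%. In translocation and signal peptide cleavage 17 of 23 had a negative difference, with a median of -0.09. Sec61a2, a channel subunit, stood at 20.5 ± 0.333 scaled FPKM in controls and 23.4 ± 0.860 in knockouts (SD, n = 4 each) without overlap (limma adjusted p = 0.271), while Srpr, a receptor for the signal recognition particle, had -0.18. In N-glycosylation and glycoprotein quality control 11 of 17 were negative, with a median of -0.03, Rpn1 at -0.40 and the glucosidase Mogs at 0.11.

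Folding enzymes outside the member list had differences of both signs. Of 25 tested, 12 had a positive difference, and the median was -0.0029. The 2 with the smallest p, Ppib at -0.23 and Fkbp10 at -0.34, are prolyl isomerases known for collagen folding, with loci overlapping Snx22 and Nt5c3b. Markers of fibroblasts and fibro-adipogenic cells, the main collagen producers, had a negative difference in 6 of 6 genes, with a median of -0.16. Their summed level lay between 216.9 and 446.1 scaled FPKM in controls and between 182 and 334 in knockouts. Whether these cells have a part in the values of Ppib and Fkbp10 was not tested, and in bulk tissue fewer cells of a type and less RNA per cell cannot be told apart.

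Of 24 other degradation genes 13 had a positive difference, with a median of 0.02. Erlec1, an ER lectin of glycoprotein degradation, stood at 13.1, 10.9, 10.9 and 11.7 scaled FPKM in controls and at 13.5, 16.8, 13.3 and 15.6 in knockouts, a difference of 0.32 without overlap (SE 0.10, limma adjusted p = 0.212). Edem2, a mannosidase, had -0.20, also without overlap. Of 20 other regulators 10 were positive. Eif2ak1, the heme-regulated eIF2alpha kinase HRI, stood at 22.7, 22.5, 22.1 and 21.8 scaled FPKM in controls and at 25.4, 31.2, 28.5 and 28.7 in knockouts, a difference of 0.34 without overlap (SE 0.08, limma adjusted p = 0.117). Tmbim4, a Golgi member of the Bax inhibitor family, had -0.32. The Eif2ak1 locus overlaps those of Aimp2 and Ankrd61.

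Further ATF4-responsive genes more often had a negative than a positive difference. Of 23 tested, 16 had a negative difference, with a median of -0.08. Gpt2, the mitochondrial alanine aminotransferase, stood at 101, 123, 149 and 102 scaled FPKM in controls and at 95.6, 64.7, 78.6 and 42.4 in knockouts, a difference of -0.79 without overlap (SE 0.24, limma adjusted p = 0.207). Psph, the last enzyme of serine synthesis, had 0.24, also without overlap (limma adjusted p = 0.337), so the genes of this list did not all have 1 sign.

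Other cell types of the tissue were checked by their markers, none of which passed over all genes and none of which was at 0 in all libraries. Endothelial markers had a negative difference in 5 of 5 tested genes, with a median of -0.18 and sums of 191 to 226 in controls and 159 to 205 in knockouts. Macrophage markers had a positive one in 5 of 5, with a median of 0.10 and sums of 10.3 to 18.0 and 10.9 to 18.6, and Adgre1 was under 1 FPKM in all libraries. The T cell marker Cd3e was at 1.20 ± 0.209 scaled FPKM in controls and 5.02 ± 2.52 in knockouts (SD, n = 4 each, limma adjusted p = 0.0869), while Cd3d, Cd3g and Cd2 were under 1 FPKM in all libraries. Sums of these 4 T cell genes were 1.20 to 1.78 in controls and 2.65 to 8.58 in knockouts. Cd3e alone ran from 0.961 to 1.45 in controls and from 2.23 to 8.32 in knockouts, so the sums mostly repeat that 1 gene. Schwann cell markers had a negative difference in 4 of 4 tested genes, erythrocyte markers a positive one in 3 of 3, satellite cell markers 1 of each sign, and the 1 tested adipocyte marker a negative one. The part of these cells in the chaperone values was not tested.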

How the data were processed

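RNA of tibialis anterior from 4 control and 4 knockout mice was extracted with Trizol and made into TruSeq RNA v2 libraries, per the labels' protocols. STAR and Cufflinks were run against mm10, per the submitters' processing notes, while versions and annotation are not given in the sources used here. FPKM per gene are the authors' deposited values, 1 table per library per the file headers. They are not counts, so no count model was used. Values of overlapping genes are estimates that depend on how Cufflinks divides reads, and strand use is not stated.

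One median-of-ratios factor per library (0.904 to 1.07) was divided out, and values were analysed as log2(scaled FPKM + 1), on which the change of low genes is understated. A gene was tested if it reached 1 scaled FPKM in 4 or more libraries and its status was OK throughout (23 genes failed the status). This left 11096 genes for limma 3.58.1 (R 4.3.3, eBayes with trend), Benjamini-Hochberg adjustment and a threshold of 0.05. The fit was also run on simulated data with independent normal noise, which do not hold the split of libraries by Xist. The outcome of that run is not given here. Python 3.11.15 with numpy 2.4.6, pandas 2.3.3 and matplotlib 3.10.9 did the rest.

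The members and lists were chosen with earlier results of these data known. Every member is named. Values per library are given for members called, without overlap, at an unadjusted p under 0.05, or highest in their role, and of each further list the called genes or else the 2 with the smallest p. Xbp1 and Cd3e were added after their values were seen. Promoters are from RefSeq (GRCm38.p6). Alternatives were other pseudocounts, filters, scalings and variance models, each library left out, a replicate block, and fits that take Xist or knockouts 2 and 4 into account. The result of 1 marker list is not reported here.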

Additional observations from a re-analysis of the deposited data

Results flagged for a closer look

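Of 74 sets of 4 libraries looked at (37 genes, 2 groups), 3 held a library whose distance to the nearest of the others was over the 95% limit of Dixon's test for 4 values, which chance passes in about 1 in 20 groups. Hsp90b1 in control 4 was 64.7 scaled FPKM, with the other controls between 59.2 and 60.0. Hsp90b1 in knockout 2 was 81.3 scaled FPKM, with the other knockouts between 65.4 and 67.6. Derl2 in knockout 3 was 5.47 scaled FPKM, with the other knockouts between 6.07 and 6.15.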

How the results depend on the processing

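Of the 36 tested members, 22 kept the sign of their difference in every alternative that tested them, and 14 did not. Those alternatives numbered 19, or 18 for 5 of the 22. Among the 22 were Sdf2l1, Manf, Hyou1, Hspa5, Hsp90b1, Pdia6, Atf4 and Asns. In Sdf2l1, Manf, Hyou1, Hsp90b1 and Pdia6 leaving libraries out could not turn the sign, as their groups did not overlap. The number of genes passing over all genes, 40 as reported, was 8 with no filter, 15 with a mean of at least 5, 103 with array weights, 223 with the Xist covariate, 3 in libraries lacking Xist, 13 without knockouts 2 and 4, and 2 (without control 4) to 27 (without knockout 3) with 1 library left out. Carm1 lost its call in 12 of 19. Members passing were 1 with array weights (Sdf2l1), 1 with the Xist covariate (Hyou1) and 0 to 1 with 1 library left out. Without scaling the median of all genes was 0.07, that of the members 0.13 and that of the 18 folding genes 0.24, and 73.5% of passing genes were higher against 55.0% as reported. With 1 library left out the members' median ran from 0.052 to 0.12, and that of the PERK and ATF4 targets from -0.24 (without control 1) to -0.095 (without control 3). Of members whose sign did not turn, Sdf2 then ran from 0.048 to 0.19 and Vcp from -0.22 to -0.054. Herpud1 ran from -0.19 to -0.066, Ppp1r15b from -0.17 to -0.066, and Trib3 was -0.10 without control 2. Ranges over all alternatives were wider. They were 0.0064 to 0.30 for Hspa13, 0.048 to 0.21 for Sdf2 and -0.22 to -0.0010 for Vcp. For Herpud1 the range was -0.23 to -0.038, and for Ppp1r15b -0.23 to -0.037.

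Correlations of same-numbered libraries ran from -0.43 to 0.35, over 0.1 in 2 of 4 pairs, and 3 of 8 libraries correlated best with their own number. Control 1, with Xist, had 0.48 and 0.37 with knockouts 2 and 4, and -0.43 and -0.38 with knockouts 1 and 3. Control 4, without Xist, had 0.19 with knockout 4 and -0.04, -0.09 and -0.06 with knockouts 1, 2 and 3. Same-numbered libraries 1, 2 and 4 differ in Xist, so these correlations cannot decide whether the numbers pair the animals. With the replicate block 0 genes passed, and 1314 had an unadjusted p under 0.05 in limma.

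Where signs turned, the log2 differences were as follows, and the cause was not tested. Without scaling they were 0.060 for Pdia3, 0.069 for Pdia4 and 0.0073 for Eif2ak3. With quantile normalization it was -0.0065 for Edem1. With array weights they were -0.020 for Creld2, 0.034 for Pdia4 and -0.018 for Syvn1. With the Xist covariate they were -0.041 for Ern1 and -0.022 for Sel1l. In libraries lacking Xist they were -0.020 for Dnajb9, -0.0026 for Canx, -0.043 for Ern1, -0.039 for Syvn1, -0.031 for Sel1l, -0.038 for Derl1 and -0.061 for Derl2. Without knockouts 2 and 4 they were -0.054 for Dnajb9, -0.10 for Canx, -0.12 for Ern1, -0.099 for Sel1l and -0.042 for Derl1. With 1 library left out, ranges were -0.057 to 0.18 for Ddit3, -0.056 to 0.054 for Syvn1, -0.022 to 0.097 for Derl2, -0.046 to 0.11 for Ern1, -0.38 to 0.060 for Chac1, -0.025 to 0.071 for Edem1, -0.0093 to 0.080 for Creld2, -0.019 to 0.12 for Sel1l, -0.096 to 0.076 for Pdia3, -0.092 to 0.078 for Pdia4, -0.11 to 0.00059 for Eif2ak3 and -0.017 to 0.065 for Derl1. Absolute depth is unknown, so no counting error is given for low genes such as Trib3 and Ern1.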
